A study of Mus musculus with 2 samples.

Results

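All 53 keratin genes of the mouse data were followed across the states of anagen hair follicle cells, out of 31053 features in the matrices. They were taken by name alone, as every feature whose symbol is Krt followed by a number and at most 1 letter, so keratin-associated proteins were not among them. Of the 53, 28 encode type I and 25 type II keratins. The cells came from the skin of wild type C57BL/6;CD1 mice at postnatal day 32, in mid anagen, when hairs grow, with no treatment. They are labelled hair follicle stem cells and were sorted by fluorescence on the surface protein CD34 and on H2BGFP, a green fluorescent histone driven by the promoter of Krt14, which is itself a member. The 2 droplet libraries were made with the 10x Chromium 3′ version 3 kit and form 1 group, called replicate 1 and replicate 2. Nothing in the labels says whether they came from separate animals, so no p-value below can stand for a spread between animals. Each rests on these 2 libraries only. In the main fits the library is a block, so a p-value sets a difference between gates or classes of cells against how unevenly the 2 libraries show it.

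Keratins build the intermediate filaments of epithelial cells. A filament forms only from pairs of 1 type I and 1 type II chain, so cells need both kinds, and the pair in use changes with the place and stage of the cell: Krt5 with Krt14 or Krt15 in basal layers, Krt8 with Krt18 or Krt19 in simple epithelia, Krt1 with Krt10 in differentiating epidermis, Krt6a with Krt16 or Krt17 in the follicle and in stressed skin, Krt71 to Krt73 with Krt25 to Krt28 in the inner root sheath, and a further set of hair keratins in the shaft. In mouse the type I genes lie together on chromosome 11 and the type II genes on chromosome 15, with Krt18 as the exception, a type I gene at the end of the type II cluster. All 53 symbols were matched in the GENCODE M21 annotation (GRCm38). There, 27 type I genes spanned chr11:99232761-100269871, and the 25 type II genes and Krt18 spanned chr15:101347444-102032027.

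The inner root sheath keratins are described below as a set found mostly in few cells, not all of them in the same ones. The 250 bases before the start of 4 of them are shown here. The sequences are from RefSeq (GRCm38.p6), all on the minus strand, at chr11:99322952-99323201 (Krt25), chr11:99351119-99351368 (Krt27), chr11:99374904-99375153 (Krt28) and chr15:101743098-101743347 (Krt71). Capitals mark matches on either strand to 4 strings: TATAAA (known from promoters with a TATA box), the string GATAAG known from sites of GATA factors, and the cores of LEF and TCF sites spelled CTTTGA or, in the other form, CTTTGT. No matches overlap.
Krt25: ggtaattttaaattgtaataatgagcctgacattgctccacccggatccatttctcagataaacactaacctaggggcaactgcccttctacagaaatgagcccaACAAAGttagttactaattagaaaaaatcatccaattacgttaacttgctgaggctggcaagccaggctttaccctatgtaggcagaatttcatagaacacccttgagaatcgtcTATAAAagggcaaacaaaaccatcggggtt
Krt27: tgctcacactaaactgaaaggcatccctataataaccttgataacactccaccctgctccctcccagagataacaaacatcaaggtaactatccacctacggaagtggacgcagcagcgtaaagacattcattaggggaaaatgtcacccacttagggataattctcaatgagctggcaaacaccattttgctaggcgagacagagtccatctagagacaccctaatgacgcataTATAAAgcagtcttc
Krt28: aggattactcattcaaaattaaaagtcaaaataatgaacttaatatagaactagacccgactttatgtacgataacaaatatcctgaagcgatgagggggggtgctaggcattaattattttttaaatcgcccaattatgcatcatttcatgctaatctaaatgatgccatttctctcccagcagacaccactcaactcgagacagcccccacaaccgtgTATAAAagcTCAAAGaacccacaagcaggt
Krt71: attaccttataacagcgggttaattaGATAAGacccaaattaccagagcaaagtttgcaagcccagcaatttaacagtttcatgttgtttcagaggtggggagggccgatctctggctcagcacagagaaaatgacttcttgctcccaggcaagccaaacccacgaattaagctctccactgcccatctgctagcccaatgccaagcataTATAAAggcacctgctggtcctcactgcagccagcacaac
The TATAAA string was found in all 4, starting at position -30 in Krt25 and Krt28, -15 in Krt27 and -40 in Krt71, counted backwards from the base before the start. Over all 32851 RefSeq windows of this length 12.4% held TATAAA on either strand, against 17 of the 37 windows (45.9%) of the 36 keratin genes with an entry. CTTTGA was present in Krt28 at -21 on the reverse strand and in 13.8% of all windows. CTTTGT stood in Krt25 at -145 on the reverse strand and in 16.5% of all windows, and GATAAG in Krt71 at -224 and in 6.55%. The matches are letter strings and were not tested as binding sites.

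The deposited values are counts of unique molecular identifiers (UMIs), each of which stands for 1 captured RNA molecule read at its 3′ end. Barcodes needed 1000 genes or more, and mitochondrial UMIs of 10% or less, to be kept: 3918 of 6592 barcodes in replicate 1 and 3041 of 5080 in replicate 2, with a median of 9955 and 9797 UMIs. Among the kept cells 3 barcode sequences occurred in both libraries. Cells were sorted into 9 keratinocyte gates and 5 gates for other cell types by short lists of marker genes that contain no keratin, and each gate is called here by 1 of its markers. These are the Tgm5 gate (markers of the outer bulge), the Gdf10 gate, the Wfdc18 gate (suprabasal-like sheath), the Fgf5 gate (contractile lower sheath, with Acta2), the Edn2 gate (outer root sheath), the Sostdc1 gate, the Gata3 gate (inner root sheath), the Msx2 gate (hair matrix) and the Defb6 gate (upper follicle). They held 5132 cells, from 42 to 934 in a gate and library, while 165 cells fell in other gates and 1662 (23.9%) in none. A gate is a rule on marker genes, and its name is not a cell type shown otherwise. Gate sizes differed between the libraries: the Tgm5 gate had 76 and 234 cells and the Sostdc1 gate 75 and 603.

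Levels are given as CPM, the UMIs of a gene summed over the cells of 1 gate in 1 library and scaled to the same total of 1000000 UMIs, in the order replicate 1 then replicate 2. UMIs are counted per molecule, so CPM values of different genes can be set side by side without a length scale. Whether different genes are captured and assigned equally well was not tested. Keratin paralogs share sequence (Krt6a with Krt6b, and Krt14, Krt16, Krt17 and Krt42 with each other), so small values among them are uncertain. Fibroblasts, which should lack keratins, had 0.154% and 0.231% of their UMIs from keratin genes, and gated immune cells 0.436% and 0.143%. In fibroblasts Krt17 stood at 511 and 284 CPM, Krt15 at 305 and 438, and Krt5 at 270 and 535, used here as a background for the abundant members. This background is uneven, since 10 cells gave 90.1% and 96.2% of the fibroblast Krt17 UMIs. Gated melanocytes, 13 and 11 cells, had more, 1.57% and 1.66% of their UMIs from keratin genes.

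Keratins took 1448802 UMIs of the kept cells, and 4 genes held 97.3% of them. Krt17 alone had 37.3%, Krt15 22.9%, Krt14 21.8% and Krt5 15.3%. The next member, Krt16, had 0.337%. Krt34 and Krt40 had no UMI, 26 further members had 1 to 99, and 16 reached 50 CPM in some keratinocyte gate in both libraries: Krt5, Krt6a, Krt10, Krt14, Krt15, Krt16, Krt17, Krt19, Krt24, Krt25, Krt28, Krt71, Krt75, Krt77, Krt79 and Krt80. In an edgeR quasi-likelihood fit of the 18 sums of 9 gates and 2 libraries, 27 members passed the expression filter and 26 did not. Of the 27, 26 differed among the gates at an adjusted p under 0.05, where 44.9% of all 11070 genes tested did, with Krt90 the exception (edgeR adjusted p = 0.168). Low members could pass the filter only through a gate where they are high, so this count describes them and is no support.

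**Figure D1:**
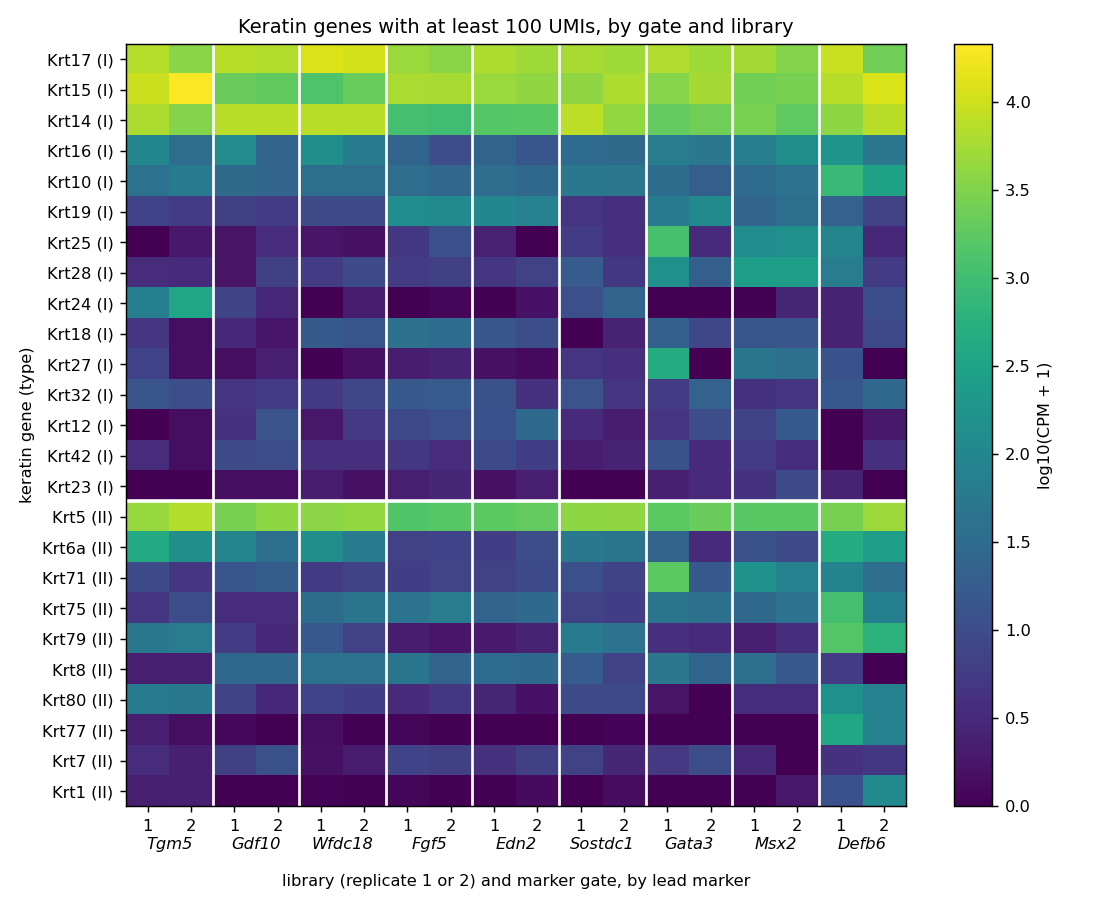
Level of each keratin with at least 100 UMIs, as log10(CPM + 1) by colour, in every marker gate (pairs of columns, replicate 1 and replicate 2). Type I genes stand above the white line and type II genes below it. The 4 bright rows are Krt17, Krt15, Krt14 and Krt5. Some of the other members are high in 1 or a few gates only, while others, such as Krt16 and Krt10, are spread over the gates.

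Each gate was tested against the other 8, averaged with equal weight. Gate markers were chosen with earlier results of these data known, so p-values of these tests describe the gates and are no independent support. In the Tgm5 gate 6 keratins were higher and 4 lower, where 19.6% of all genes tested were called, 10.8% higher and 8.74% lower. In the Gdf10 gate 5 were higher and 6 lower (14.7% of all genes called, 8.99% higher and 5.66% lower), and in the Wfdc18 gate 7 and 4 (18.4%, 11% and 7.37%). The Fgf5 gate had 6 on each side (20.9%, 12.6% and 8.31%), the Edn2 gate 5 higher and 7 lower (15.4%, 9.68% and 5.67%) and the Sostdc1 gate 4 and 4 (14.5%, 7.71% and 6.77%). The share of all genes called was lower in the Gata3 gate, 2.05% (1.73% higher and 0.316% lower), with 7 keratins higher and 2 lower, and in the Msx2 gate, 3.62% (2.39% and 1.23%), with 7 and 4. The Defb6 gate had the most keratins on the higher side, 11 against 1 lower, where 13.6% of all genes were called, 9.17% higher and 4.42% lower. The median keratin there stood at a log2 difference of 1.30, against -0.02 over all genes tested, and in the Edn2 gate at -1.19 against 0.04. The medians and counts cover only the 27 tested members. Some of these, such as Krt77 and Krt1, had nearly all their UMIs in the Defb6 gate and could pass the filter only through it. The filter thus partly fixes the median and the count of the Defb6 gate. The same members enter the medians of the other gates. In the Edn2 gate Krt77 was at 0 and 0 CPM and Krt1 at 0 and 0.317, so the filter partly fixes the Edn2 median too.

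Krt14 and Krt15, both type I partners of Krt5, were high in different gates. Krt14 was at 7610 and 7557 CPM in the Gdf10 gate and 7635 and 7184 in the Wfdc18 gate, but at 1134 and 999 in the Fgf5 gate and 1518 and 1630 in the Edn2 gate. Krt15, the keratin most used to mark bulge cells, had 5991 and 5904 CPM in the Fgf5 gate, 2200 and 1889 in the Gdf10 gate and 1358 and 2120 in the Wfdc18 gate. Krt15 thus supplied 84.1% and 85.5% of the Krt14 and Krt15 UMIs in the Fgf5 gate, 22.4% and 19.99% in the Gdf10 gate and 15.1% and 22.8% in the Wfdc18 gate. Against the mean of the other gates Krt14 was higher in the Gdf10 gate by log2 1.29 ± 0.21 (SE; edgeR adjusted p = 0.000546) and lower in the Fgf5 gate, at log2 -1.99 ± 0.27 (adjusted p = 4.89e-05). Krt15 was lower in the Wfdc18 gate, at -1.57 ± 0.23 (adjusted p = 7.75e-05), while its 0.41 ± 0.19 in the Fgf5 gate was not called (adjusted p = 0.152). Within the gates single cells varied widely: in the Gdf10 gate of replicate 1 the Krt15 share of this pair ran from 3.54% at the lower to 48.1% at the upper decile of cells, and in the Fgf5 gate of replicate 1 from 65.7% to 97.4%. Since the sort used the Krt14 promoter, the gates hold only cells that passed it, and the part of the sort in the Krt14 levels was not tested.

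The highest Krt15 level was in the Tgm5 gate, 9510 and 21366 CPM, followed by the Defb6 gate with 7304 and 12055, whose range overlapped it. Krt15 was called higher in both, by log2 1.94 ± 0.17 (edgeR adjusted p = 3.76e-07) and 1.30 ± 0.18 (adjusted p = 6.38e-05). The 2 libraries differed here. Krt15 held 59.8% of the Krt14 and Krt15 UMIs of the Tgm5 gate in replicate 1 and 86.5% in replicate 2, while Krt14 was at 6383 and 3346 CPM. The summed level of the gate's own markers was 908 CPM in replicate 1 and 1874 in replicate 2, and Cd34 was at 139 and 365; the part of these in the difference was not tested.

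Krt17, a type I keratin of the outer root sheath and of activated skin, was highest in the Wfdc18 gate, at 12807 and 11410 CPM, and its range there did not overlap that of any other gate. The next gate was the Gdf10 gate with 7502 and 6659, and the lowest by its mean was the Fgf5 gate with 4733 and 3563. The Wfdc18 gate stood above the mean of the others by log2 1.23 ± 0.19 (edgeR adjusted p = 0.00016), and no other gate was called for Krt17. The level in the Defb6 gate was 9072 CPM in replicate 1 and 2419 in replicate 2, and 62.3% and 62.6% of these UMIs came from 10 cells in each library.

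Krt5, the type II partner of all of these, was highest in the Tgm5 gate, at 4590 and 6820 CPM, and lowest in the Fgf5 gate, at 1431 and 1577, with log2 differences of 1.15 ± 0.12 (edgeR adjusted p = 1.98e-06) and -1.06 ± 0.14 (adjusted p = 3.2e-05). The Wfdc18, Sostdc1 and Defb6 gates came next and overlapped each other. Across the 9 gates log2 Krt5 tracked the sum of Krt14, Krt15 and Krt17 with Pearson r of 0.94 and 0.96 in the 2 libraries. Krt14 alone gave 0.90 and 0.81, Krt15 alone 0.01 and 0.42, and Krt17 alone 0.59 and 0.10. These correlations are a description over 9 gates that share a library and a total, so a gene's level also enters the CPM of the others.

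**Figure D2:**
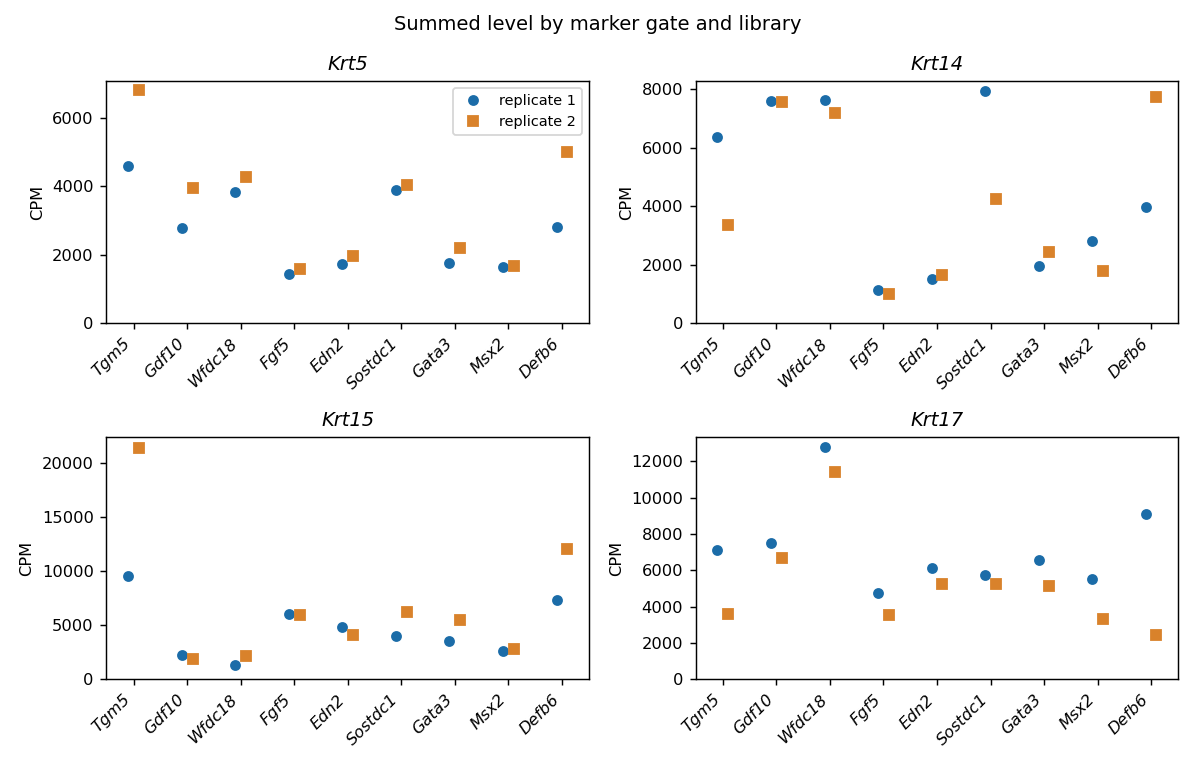
Level in CPM of Krt5, Krt14, Krt15 and Krt17 in the 9 marker gates, with 1 point for each library. Krt14 is lowest in the Fgf5 gate (1134 and 999 CPM) where Krt15 stands at 5991 and 5904 CPM, Krt15 peaks in the Tgm5 gate (9510 and 21366) and Krt17 in the Wfdc18 gate (12807 and 11410).

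Type I UMIs outnumbered type II UMIs in every keratinocyte gate. The ratio ran from 3.31 type I UMIs per type II UMI, in the Defb6 gate of replicate 1, to 7.85, in the Fgf5 gate of replicate 1. By mean over the libraries the Fgf5 gate had 7.09 ± 1.08 (SD, n = 2), the Edn2 gate 6.19 ± 1.11, the Tgm5 gate 4.28 ± 0.316 and the Defb6 gate 3.46 ± 0.215. The ratio was higher in replicate 1 than in replicate 2 in 7 of 9 gates, all but the Gata3 and Defb6 gates. The balance was not tested between gates. Krt14, Krt15 and Krt17 made up 98.2% of type I UMIs and Krt5 92.5% of type II UMIs. Keratins as a whole took most of the message in the Tgm5 gate, 2.84% and 3.59% of all UMIs, and least in the Msx2 gate, 1.34% and 1.05%. A summed value cannot tell fewer expressing cells from less RNA per cell. Per cell, the median type I share of keratin UMIs was 89.4% and 86.6% in the Fgf5 gate and 79.8% and 79.3% in the Defb6 gate. In replicate 2 the Defb6 gate was not set apart, with 79.6% in the Gdf10 and Sostdc1 gates and 79.8% in the Tgm5 gate. In replicate 1 the Gdf10, Sostdc1 and Tgm5 gates had 85.2%, 82.5% and 82.2%.

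**Figure D3:**
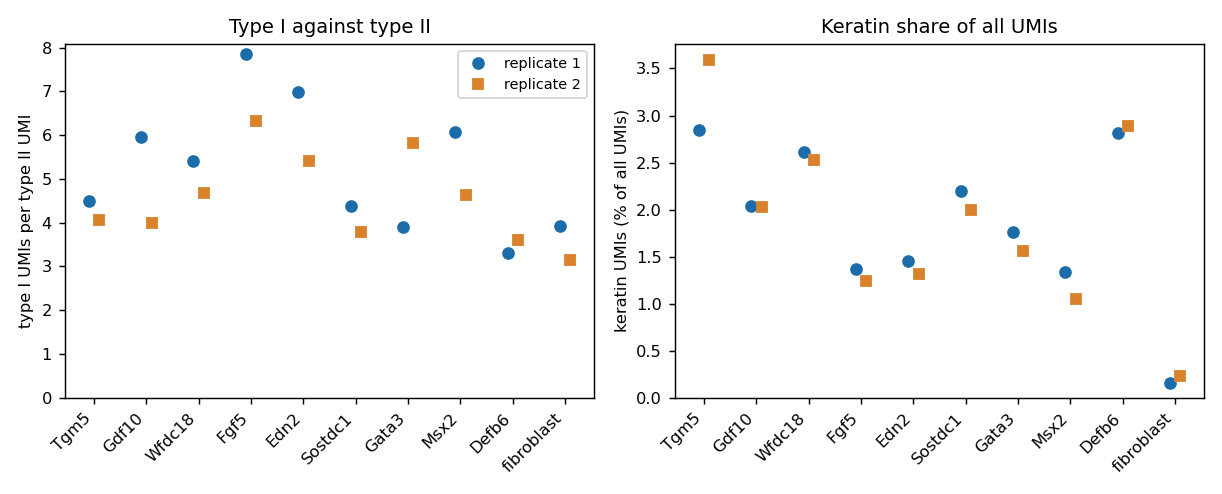
Left, type I UMIs per type II UMI; right, keratin UMIs as a percent of all UMIs, in the 9 marker gates and in gated fibroblasts, 1 point for each library. The ratio is highest in the Fgf5 gate (7.85 and 6.32) and the keratin share lowest, outside fibroblasts, in the Msx2 gate (1.34% and 1.05%).

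At the level of single cells Krt5 was found together with a type I partner in most cells. After thinning every cell to 5000 UMIs, 95.8% of 2646 keratinocytes of replicate 1 (95% Clopper-Pearson interval 94.97 to 96.5) and 95.4% of 2255 of replicate 2 (94.4 to 96.2) had a UMI of both Krt5 and Krt14. For Krt5 with Krt15 the shares were 88.6% (87.3 to 89.8) and 96.2% (95.3 to 96.9). In thinned fibroblasts, the background, 11.5% of 52 and 15% of 40 cells had both Krt5 and Krt14. Intervals cover counting error only, and 107 and 124 shallower keratinocytes were left out. In the Defb6 gate fewer cells had the Krt5 and Krt14 pair, 72.7% (57.2 to 85.0) and 82.1% (70.8 to 90.4).

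The simple-epithelial keratins were low and differed between gates. Krt19, a type I keratin without the usual tail domain, was at 127 and 118 CPM in the Fgf5 gate, 99.6 and 81.3 in the Edn2 gate and 62.8 and 112 in the Gata3 gate. It stood at 6.45 and 4.71 CPM in the Tgm5 gate, 5.66 and 4.72 in the Gdf10 gate and 3.50 and 2.82 in the Sostdc1 gate, far below. The Fgf5 gate was higher than the mean of the others by log2 3.01 ± 0.16 (edgeR adjusted p = 1.79e-09), the Edn2 gate by 2.55 ± 0.17 (adjusted p = 7.17e-08) and the Gata3 gate by 2.35 ± 0.24 (adjusted p = 2.74e-05). After thinning, 43.4% (38.7 to 48.2) of 440 and 42.2% (37.4 to 47.1) of 410 cells of the Fgf5 gate had a Krt19 UMI, against 64.1% and 60.0% before thinning, at a median of 10852 and 10734.5 UMIs. The shares were 1.37% of 73 and 2.28% of 219 cells in the Tgm5 gate and 1.92% of 52 and 10.0% of 40 fibroblasts, whose median depth before thinning was 8584 and 8788.5 UMIs in the gate and 12721.5 and 15807 in fibroblasts. Krt19 was thus no more frequent than in fibroblasts in the Tgm5 gate, the gate with the most Krt15. Summed fibroblasts had 13.3 and 79.3 CPM of Krt19, the latter from 58 UMIs.

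Krt18, a type I keratin of simple epithelia, had its highest level in the Fgf5 gate too, 39.2 and 31.2 CPM, at log2 2.64 ± 0.22 above the mean of the others (edgeR adjusted p = 2.4e-07). Krt8, its type II partner, was spread over more gates: it was at 47.1 and 22.6 CPM in the Fgf5 gate, 42.7 and 40.2 in the Wfdc18 gate and 50.4 and 24.3 in the Gata3 gate. The Wfdc18 gate was higher for Krt8 by 1.72 ± 0.24 (edgeR adjusted p = 6.16e-05). Both were low in the Tgm5 gate, with Krt8 at 1.29 and 1.41 CPM and Krt18 at 3.87 and 0.471. In the Tgm5 gate Krt8 was lower by log2 -3.62 ± 0.67 (adjusted p = 0.000866). Both Krt8 and Krt18 were seen in 1.44% (1.02 to 1.97) of thinned keratinocytes of replicate 1, where independent draws at the same single shares would give 0.893%, and in 0.532% (0.275 to 0.928) of replicate 2, against 0.267%. These shares pool all keratinocyte gates, which differ in both genes, and the part of that in the excess was not tested. In all, 11.6% and 7.79% of thinned cells with Krt8 also had Krt18. At this depth a missing partner cannot be told from an undetected one.

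Krt24, a type I keratin, was concentrated in the Tgm5 gate. Its level was 73.5 and 368 CPM there, against 1.31 and 9.97 CPM over the summed cells of the other 8 gates, a ratio of 56.3 in replicate 1 and 36.9 in replicate 2. Its range there did not overlap that of the next gate, the Sostdc1 gate with 10.51 and 24.3 CPM. A Krt24 UMI was found in 13.7% (6.77 to 23.8) of 73 thinned cells of the Tgm5 gate in replicate 1 and 42.9% (36.3 to 49.8) of 219 in replicate 2, and in 0 of 52 and 0 of 40 fibroblasts, which allows a share of up to 5.77% and 7.5% at a floor of 3 cells. The fitted log2 difference is not quoted as a size, since several reference gates were at 0. Its edgeR adjusted p was 1.15e-09, which is no independent support, since the gate markers were chosen with earlier results of these data known.

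Krt6a and Krt80, both type II, were high in the Tgm5 gate and in the Defb6 gate. Krt6a, a companion layer and stress keratin, had 435 and 136 CPM in the Tgm5 gate, 476 and 264 in the Defb6 gate and 5.79 and 6.49 in the Fgf5 gate. The Tgm5 gate was higher by log2 3.09 ± 0.25 (edgeR adjusted p = 1.48e-07), the Defb6 gate by 3.74 ± 0.25 (adjusted p = 1.37e-08), and the Fgf5 gate lower, at -3.02 ± 0.40 (adjusted p = 3.24e-05). Replicate 1 exceeded replicate 2 in each of the 4 gates where Krt6a was highest. Krt80, a keratin linked to desmosomes, had 61.9 and 55.5 CPM in the Tgm5 gate and 147 and 83.0 in the Defb6 gate. In any other keratinocyte gate Krt80 had at most 9.34 CPM. It was higher by 3.74 ± 0.25 (adjusted p = 1.32e-08) and 4.84 ± 0.24 (adjusted p = 3.1e-10). The 5 markers of the Tgm5 gate summed to 455 and 352 CPM in the Defb6 gate, against 908 and 1874 in the Tgm5 gate itself; their part in the shared keratins was not tested.

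Krt16, a type I keratin that pairs with Krt6a in stressed epidermis, also had its highest mean in the Defb6 gate, at 171 and 51.0 CPM, but was not called there (edgeR adjusted p = 0.0679). It was at 143 and 62.2 CPM in the Wfdc18 gate, where it was called higher (log2 1.05 ± 0.32; edgeR adjusted p = 0.0272), and at 96.7 and 33.9 in the Tgm5 gate, where it was not. Its 69.6 and 144 CPM in the Msx2 gate came mostly from 10 cells in each library, with 82.5% and 96.8% of the UMIs. It was lower in the Fgf5 gate, at -1.96 ± 0.43 (adjusted p = 0.00285), and in the Edn2 gate. Both Krt6a and Krt16 were detected in 3.099% (2.47 to 3.83) and 1.33% (0.899 to 1.89) of thinned keratinocytes, where independent draws would give 2.14% and 0.910%. These shares pool all keratinocyte gates, which differ in both genes, and the part of that in the excess was not tested.

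**Figure D4:**
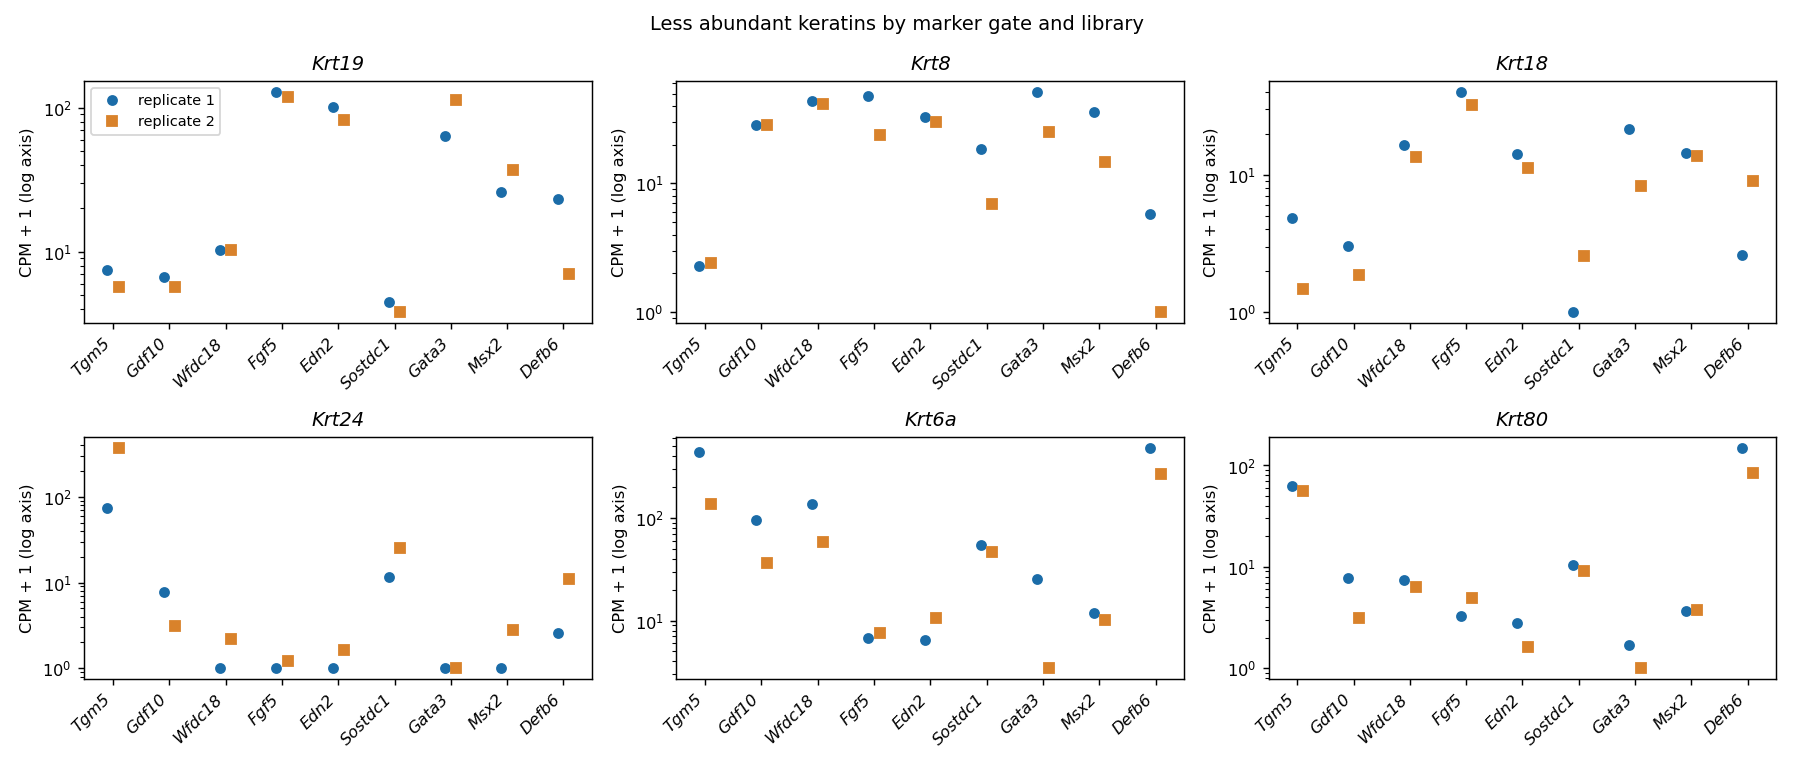
Level of Krt19, Krt8, Krt18, Krt24, Krt6a and Krt80 by marker gate, as CPM + 1 on a log axis, 1 point for each library. Krt19 is above 60 CPM in the Fgf5, Edn2 and Gata3 gates; Krt24 peaks in the Tgm5 gate, and Krt6a and Krt80 in the Tgm5 and Defb6 gates.

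In the Defb6 gate, the smallest in replicate 1 with 45 cells and holding 69 in replicate 2, several keratins of differentiating epithelium were high. Krt79, a type II keratin of the follicle opening and sebaceous duct, was at 1475 and 594 CPM, and over the summed other gates at 9.19 and 22.3, a ratio of 160 and 26.6. It was higher by log2 7.58 ± 0.17 (edgeR adjusted p = 1.52e-14), which is no independent support, for the same reason as for Krt24. Krt79 was found in 12 of 45 and 20 of 69 cells. Krt77, a type II keratin known from eccrine sweat ducts, had 394 and 80.0 CPM from 9 and 17 cells, with 0.26 and 0.0746 CPM over the other gates. Krt10, the type I keratin of the spinous epidermis, had 856 and 312 CPM, higher by 4.06 ± 0.18 (adjusted p = 1.05e-10), and Krt1, its partner, 11.2 and 117. Krt10 in every other keratinocyte gate stood between 19.5 and 58.8 CPM, below the 87.8 and 73.9 of fibroblasts. Gated immune cells, 11 and 16 in number, had 0 and 10.0 CPM, so there is no single background for Krt10.

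Single cells weighed heavily on these differentiation keratins. In replicate 1 the 12 cells with Krt79 had 1161 CPM of Krt77 and 1701 of Krt10, against 19.0 and 442 in the 33 cells without it. In replicate 2 the 20 cells with Krt79 had 88.9 and 264, against 74.9 and 339 in the other 49. In replicate 2, 1 cell without Krt79 held 160 of the 312 Krt10 UMIs of the gate. With the top cell of each class left out, a step chosen after the data were seen, Krt10 was at 98.8 CPM with and 92.1 without Krt79 in replicate 2, and at 1173 and 87.4 in replicate 1. Krt77 was then at 47.7 and 45.2 in replicate 2 and at 699 and 9.61 in replicate 1. Krt75, the type II keratin of the companion layer, was at 1116 CPM in replicate 1 and 74.0 in replicate 2, and 10 cells gave 99.4% of the 699 UMIs of replicate 1. It was called higher in the Defb6 gate, at log2 5.02 ± 0.46 (edgeR adjusted p = 7.96e-07); with replicate 1 left out the difference was 2.02, and with replicate 2 left out 6.19, both without a test. Outside the Defb6 gate Krt75 had its highest mean in the Fgf5 gate, 44.4 and 68.0 CPM, followed by the Gata3 gate, 45.5 and 38.9, and the Wfdc18 gate, 33.2 and 46.7, with overlapping ranges. It was lowest in the Gdf10 gate, 2.49 and 2.58.

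Inner root sheath keratins were concentrated in very few cells. In replicate 1 a single cell of 29755 UMIs held 4864 of the 7607 UMIs of Krt25, Krt27, Krt28 and Krt71: 1666 of Krt25, 671 of Krt27, 132 of Krt28 and 2395 of Krt71, with 417 of Tchh, trichohyalin. These genes took 16.3% of its message, and it had 3 UMIs of Krt5, 1 of Krt17 and none of Krt14 or Krt15. The cell with the next highest number had 243. Its type I to type II ratio over these keratins and Krt73 was 1.03 (2469 to 2403), where the other 30 cells of replicate 1 with at least 20 such UMIs had 3.34 and the 18 of replicate 2 had 4.72.

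That cell lies in the Gata3 gate and set its level. Krt71 stood at 1705 and 14.6 CPM in the gate and at 53.5 in replicate 1 without the cell; Krt25 stood at 1177 and 2.43, and at 28.2 without it. Only 22 of 132 and 7 of 42 cells of the gate had any UMI of these 4 keratins, so most cells taken by the inner root sheath markers had none of its keratins. Without the cell, an alternative chosen after the data were seen, Krt25 and Krt27 were no longer called there (edgeR adjusted p = 0.234 and 0.653) while Krt28 and Krt71 were, at log2 2.31 and 1.54 (0.031 and 0.0346). Cells with at least 20 such UMIs numbered 31 in replicate 1 and 18 in replicate 2, of which 13 and 5 were in no gate. All of them had Krt28, while Krt71 was in 13 and 7, and Krt5 in 30 and 17.

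In the Msx2 gate the inner root sheath keratins were high in both libraries, but most of their UMIs lay outside it. It held 11.5% and 36.6% of the UMIs of Krt25, Krt27, Krt28 and Krt71. Cells in no gate held 14.5% and 27.2%, and the Gata3 gate 66.7% and 0.949%. Krt28 was at 259 and 263 CPM in the Msx2 gate, Krt25 at 128 and 149, Krt71 at 158 and 79.6 and Krt27 at 47.3 and 36.6. In the keratinocyte gates other than the Gata3, Msx2 and Defb6 gates Krt28 reached at most 16.3 CPM and Krt25 10.3, below both libraries of the Msx2 gate. Gated fibroblasts and cells in no gate had more of both genes than these maxima, in both libraries, but also less than the Msx2 gate. The Gata3 and Defb6 gates were not set apart in this way. Krt25 stood at 1177 and 2.43 CPM in the Gata3 gate, on both sides of the Msx2 values. Krt28 stood at 63.8 and 4.997 CPM in the Defb6 gate. Krt28 was higher in the Msx2 gate by log2 5.04 ± 0.38 (edgeR adjusted p = 4.07e-07), Krt25 by 5.01 ± 0.75 (0.00105), Krt27 by 4.27 ± 0.74 (0.00368) and Krt71 by 2.76 ± 0.61 (0.0186). Here too a few cells carried the sum: 26 of 117 and 19 of 77 cells had Krt28, and 10 and 8 had Krt71. Krt73, another type II sheath keratin, came from 1 cell in each library, with 26 and 30 UMIs. Krt35, a type I keratin of the hair cortex and cuticle, was at 4.73 and 40.2 CPM, from 2 and 7 cells. The fibroblast markers summed to 293 and 334 CPM in the Msx2 gate and at most 35.9 in the other keratinocyte gates; their part in the keratin levels was not tested.

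Cycling cells, those with at least 3 of 12 proliferation genes and a mean score of 0.5 or more, were compared with the other cells of the same gate in the 4 gates with at least 20 of each in both libraries (Wfdc18, Fgf5, Edn2 and Msx2). Of 20 keratins tested, 4 rose and 6 fell in cycling cells, where 34.1% of the 9637 genes tested were called, 14.8% higher and 19.3% lower. Krt28 rose by log2 1.94 ± 0.18 (edgeR adjusted p = 2.68e-09) and was higher in cycling cells in every gate and library: 8.16 against 3.51 and 16.2 against 6.42 CPM in the Wfdc18 gate, for example. Krt6a fell by 1.51 ± 0.23 on the log2 scale (adjusted p = 1.1e-05), from 162 to 51.2 and from 70.99 to 19.6 CPM in the Wfdc18 gate. Krt27, Krt32 and Krt71 were the others that rose, and Krt5, Krt14, Krt15, Krt17 and Krt18 those that fell. Krt19 and Krt16 were not called, at -0.07 ± 0.11 and -0.03 ± 0.35. The call for Krt15, -0.41 ± 0.13, was lost without the Msx2 gate, at -0.15 (adjusted p = 0.141), and Krt71 then stood at -0.10; that alternative was chosen after the data were seen.

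The size of the cycling difference varied with the gate for 4 keratins, where 1.22% of all genes tested had such an interaction. Krt71 in the Msx2 gate was at 459 and 154 CPM in cycling cells and 4.09 and 5.48 in the others, while in the Edn2 gate it was at 8.08 and 11.2 against 5.31 and 7.52. The high values came from 6 of 29 and 5 of 26 cycling cells, with up to 162 and 51 UMIs in 1 cell, and were 142 and 62.4 CPM without that cell in each library. Krt17 was at 3182 and 2298 CPM in cycling cells of the Msx2 gate against 6677 and 4314 in the others, and in the Fgf5 gate at 4644 and 3256 against 4759 and 3635. Krt5 stood at 1186 and 1220 CPM in cycling cells of the Msx2 gate against 1867 and 2132 in the others, and in the Edn2 gate at 1728 and 2015 against 1748 and 1964. Krt14 went from 8291 to 5625 and from 8007 to 4815 CPM in the Wfdc18 gate but from 1104 to 1232 and from 971 to 1117 in the Fgf5 gate. Cycling cells of the Msx2 gate had a median of 15472 and 19258 UMIs against 9226 and 9518 in the others; the part of depth was not tested.

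**Figure D5:**
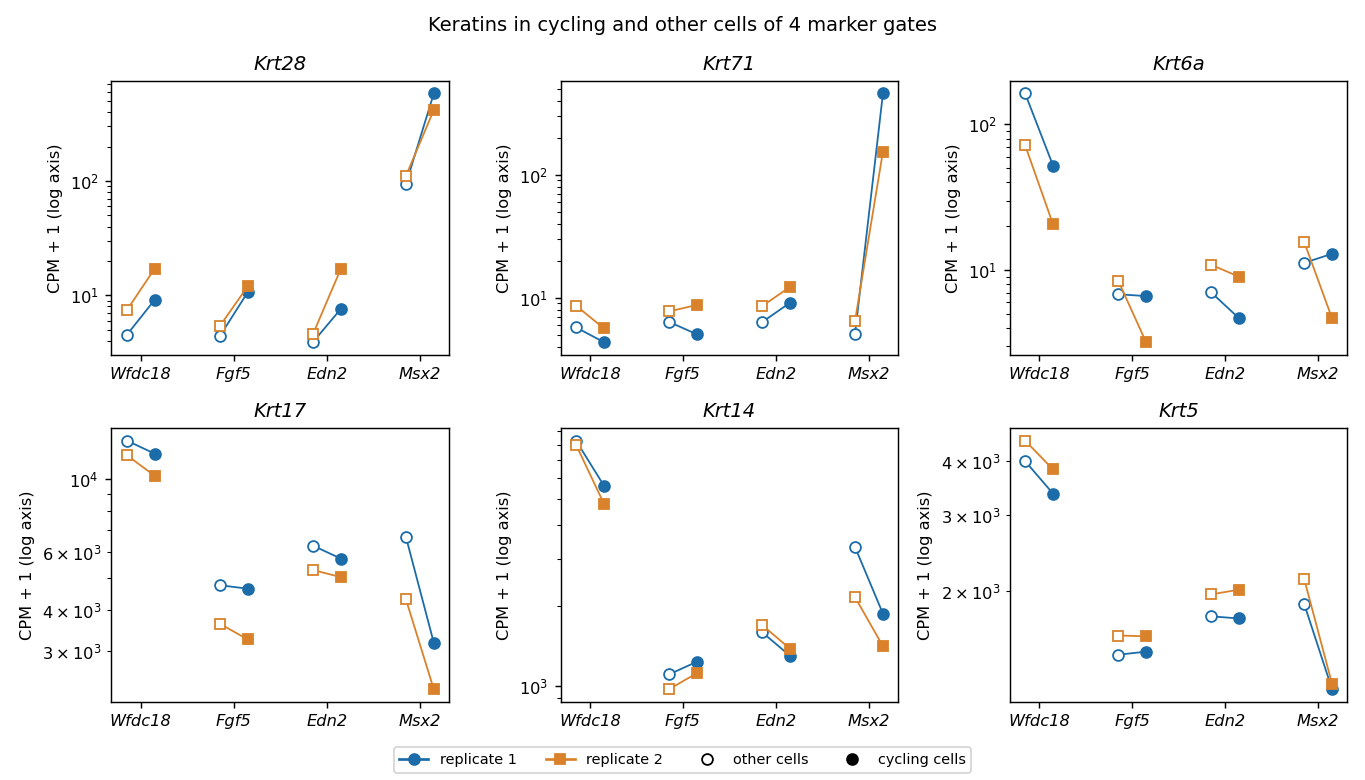
Level of 6 keratins in cycling cells (filled) and other cells (open) of 4 marker gates, as CPM + 1 on a log axis, with a line joining the 2 classes of each library. Krt28 is higher in cycling cells in all 8 pairs; Krt71 differs most in the Msx2 gate (4.09 to 459 and 5.48 to 154 CPM), as does Krt17 (6677 to 3182 and 4314 to 2298).

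The remaining members were rare in these cells, with 12 of the 53 at 1 to 9 UMIs over both libraries, beside the 2 at 0. Krt12, the type I keratin of the cornea, was at 11.3 and 29.5 CPM in the Edn2 gate, higher by log2 2.91 ± 0.29 (edgeR adjusted p = 4.7e-06), and at 0 and 0.471 in the Tgm5 gate. Krt32, a type I hair keratin, lay between 3.17 and 28.0 CPM in all keratinocyte gates, and Krt7, a type II keratin of simple epithelia, between 0 and 10.7. Krt12, Krt32 and Krt90 were singled out after their values were seen. Krt6b had 12 UMIs against 4407 of its paralog Krt6a. Krt4 with Krt13 were detected together in no thinned keratinocyte, which allows shares of up to 0.113% and 0.133% at a floor of 3 cells; these limits concern cells with a UMI, not cells that express the genes.

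A list of 22 genes, mostly for the desmosomes and hemidesmosomes where keratin filaments are anchored and for the plakins that link them, was read beside the keratins; 20 were tested. In the Tgm5 gate 13 were higher and 2 lower, where 10.8% of all genes were higher and 8.74% lower, with a median log2 difference of 0.59 against -0.01 over all genes, and in the Defb6 gate 11 and 1 (9.17% and 4.42%), median 0.70. In the Wfdc18 gate 9 were higher and 2 lower (11% and 7.37%), median 0.36. In the Fgf5 gate 1 was higher and 11 lower (12.6% and 8.31%), median -0.65, and in the Msx2 gate 0 and 7 (2.39% and 1.23%) by edgeR, with 15 of the 20 at an unadjusted p under 0.05 in either direction. The Tgm5 and Defb6 gates, with the highest keratin shares, were those with the most linkers on the higher side. Dsp, desmoplakin, which ties filaments to desmosomes, was at 634 and 626 CPM in the Tgm5 gate, 778 and 739 in the Wfdc18 gate and 197 and 239 in the Fgf5 gate. Pkp1, a desmosomal plakophilin, was at 212 and 114 CPM in the Defb6 gate and 11.6 and 8.37 in the Fgf5 gate. Within the gates 12 of 19 tested linkers fell in cycling cells and 0 rose by edgeR, with 14 at an unadjusted p under 0.05, where 19.3% of all genes tested fell and 14.8% rose.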

How the data were processed

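Droplet RNA sequencing of sorted mouse skin cells gave 2 libraries of 1 group. The deposited values are raw UMI counts per gene and barcode; per the submitters' processing notes the tools include Cell Ranger 3.1.0 and Seurat 3.1 with the mm10 build. For the gene models used in counting, the version is not given. The kept cells held 43731597 and 34571424 UMIs of 52344178 and 38678103. Kept barcodes had 1000 or more genes and mitochondrial UMIs of 10% or less, and cells were gated by the mean of scaled marker levels (at least 0.5, with at least 2 markers detected). Counts were summed per gate and library, and the sums were fitted with edgeR 4.0.16 (quasi-likelihood, TMM, expression filter by gate, library as a block), run in R 4.3.3. Each gate was compared with the mean of the others, two-sided, with Benjamini-Hochberg adjustment over all genes tested and a threshold of 0.05. The library is a block because each library holds all gates. A second fit compared cycling with other cells within gates. Balance and shares of cells have no test. The fit was tested on simulated data. Scrublet's automatic threshold called 0 doublets in both libraries, so none were removed, and leaving out the highest scores is an alternative. Alternatives used other gates, filters and references, DESeq2 1.42.0, no block, and each library left out. Members are named in full where they reach 50 CPM in a gate in both libraries; other members are named by pair. Members, gates and lists were chosen with earlier results of these data known. Promoter sequences are from RefSeq, with an entry for 36 of the 53 genes.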

Additional observations from a re-analysis of the deposited data

Results flagged for a closer look

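The difference between cycling and other cells varied among the 4 gates for 4 keratins, by the edgeR test of the interaction itself. For Krt71 (edgeR adjusted p = 2.89e-05) the log2 difference was -0.70 in the Wfdc18 gate, -0.24 in the Fgf5 gate, 0.41 in the Edn2 gate and 6.06 in the Msx2 gate. For Krt17 (adjusted p = 0.011) it was -0.29, -0.20, -0.22 and -0.97 in the same order. Krt14 (adjusted p = 0.0262) stood at -0.76, 0.08, -0.41 and -0.71. Krt5 (adjusted p = 0.0364) stood at -0.35, -0.09, -0.11 and -0.71. The causes were not tested.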

How the results depend on the processing

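Of 1357 tested alternative values for the 96 gate calls, 1201 kept their direction and side of the threshold, 149 lost the call and 7 reversed, and 41 calls held throughout. With 1 library alone 93 of 96 kept their direction in both, without a test. The count of keratins called moved as follows, and the cause was not tested. The share of all genes called under each alternative is not given beside these counts. The moves can therefore not be read as particular to keratins. Against the summed cells of the other gates it was 17 in the Tgm5 gate, 20 in the Wfdc18 and Fgf5 gates, 19 in the Edn2 gate and 17 in the Msx2 gate. With no expression filter it was 20 in the Gdf10 gate, 19 in the Fgf5 and Defb6 gates, 13 in the Sostdc1 gate, 15 in the Gata3 gate and 18 in the Msx2 gate. With no replicate block it was 7 in the Gdf10 and Fgf5 gates, 6 in the Edn2 and Msx2 gates, 4 in the Sostdc1 gate and 5 in the Gata3 gate. At most 5% mitochondrial UMIs gave a count of 6 in the Edn2 gate, and at least 3 markers, or leaving out the Gata3 gate (chosen after seeing the data), 5 in the Sostdc1 gate. Cycling calls numbered 6 against cells with no cycling marker.

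At most 5% mitochondrial UMIs reversed Krt12 (-0.020), Krt79 (2.47) and Krt8 (-0.49) in the Gdf10 gate and Krt8 (-0.26) in the Edn2 gate. That fit lacks the Tgm5, Sostdc1 and Defb6 gates, so its reference is a different mean, and the part of this was not tested. The summed reference reversed Krt18 (-0.20) in the Edn2 gate and Krt24 (-0.24) in the Sostdc1 gate. In the Gata3 gate Krt25 (-0.40), Krt27 (-1.81) and Krt73 (-0.77) reversed without replicate 1, and Krt73 (-1.60) without 1 cell; over the calls of that gate the values with 1 library left out ran from -3.69 (Krt80) to 7.79 (Krt25). Krt71 in cycling cells reversed at a cycling score of 1 (-0.032), against cells with no marker (-0.093), at a gate score of 1 (-0.47) and without the Msx2 gate (-0.10); none of these 4 fits holds the Msx2 gate.

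Without the gene with the most UMIs of each type the log2 balance of type I over type II was 4.67 in the Tgm5, 6.22 in the Gdf10, 5.56 in the Wfdc18, 5.57 in the Fgf5, 6.31 in the Edn2, 6.13 in the Sostdc1, 4.21 in the Gata3, 4.68 in the Msx2 and 2.41 in the Defb6 gate. As a median over cells the balance was 2.74 in the Gata3 and 1.96 in the Defb6 gate. With 1 library left out the balance ran from 2.02 to 2.17, 1.996 to 2.58, 2.23 to 2.44, 2.66 to 2.97, 2.43 to 2.80, 1.92 to 2.13, 1.96 to 2.54, 2.21 to 2.60 and 1.73 to 1.85 in the same order of gates. Thinned to 2000 UMIs, the pair Krt5 and Krt14 was in 85.8% and 87.2% of cells, Krt5 and Krt15 in 78.8% and 89.2%, and Krt6a and Krt16 in 1.09% and 0.294%. Unthinned, the pair shares were 97.8% and 97.5%, 92.1% and 97.6%, and 7.12% and 3.07%. The Gata3 gate gave no value with at least 3 markers or with cells of 1 gate only, nor did the Defb6 gate in the latter, and the Tgm5, Sostdc1 and Defb6 gates gave none at 5% mitochondrial UMIs, for too few cells.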
